A study of Mus musculus with 12 samples.

Results

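The Kruppel-like transcription factors described here are the 8 genes Klf3, Klf6, Klf9, Klf10, Klf11, Klf12, Klf13 and Klf15, taken by symbol from RNA-seq tables of mouse liver in which 22322 gene symbols were listed. Each gene was represented by the transcript row with the highest mean over the 12 samples. All 8 were among the 10799 symbols that reached a group mean of 1 RPKM (reads per kilobase of transcript at a common library depth) in at least 1 of the 4 groups and were tested.

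The RNA-seq compared liver transcriptomes with and without the clock gene Bmal1, in a study of rhythmic microRNA transcription. Livers came from male mice labelled C57BL/6 and 8 weeks old (substrain C57BL/6J in the methods) that lived in cycles of 12 h light and 12 h dark and then in complete darkness for the last 2 days. WT mice are described in the study's methods as homozygous for a floxed Bmal1 gene, and KO mice came from a cross of that line to one carrying CRE recombinase under a liver-specific promoter. The methods describe no CRE in WT, so an effect of the recombinase and an effect of Bmal1 loss cannot be told apart. Both genotypes were sampled at circadian time 0 h (CT0, the time at which lights would come on) and 12 h (CT12), with 3 samples in each of the 4 groups. With only 2 times, a difference between CT0 and CT12 says nothing of the shape of a daily profile or of its peak.

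KLF proteins bind GC-rich and CACCC-type DNA through zinc fingers at their C-terminal end, and their N-terminal parts recruit either coactivators or corepressors. In liver, members of the family take part in the switch between fed and fasted metabolism, in the response to glucocorticoids and in the response to injury. Several are also rhythmic in peripheral tissues, where BMAL1 and CLOCK bind E-boxes in clock-controlled promoters.

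The libraries held between 11470000 and 19040000 reads, as recovered from the steps in the low RPKM values. Arntl, which encodes BMAL1, was 16.3, 15.7 and 15.7 RPKM in WT at CT0 and 1.26, 0.680 and 1.21 RPKM in WT at CT12. KO livers had 5.91, 5.73 and 7.45 RPKM of Arntl at CT0 and 4.37, 3.59 and 4.01 RPKM at CT12. The KO samples thus lay below the WT samples at CT0 and above them at CT12. This row covers the whole transcript, of which a part is deleted in KO, so its level alone does not check the deletion. Hepatocyte genes defined the tissue, with a summed level of 5 markers of 22794 to 47520 RPKM over the 12 samples, most of it Alb, and no listed marker of any cell type was at 0 in all samples. In whole liver, fewer cells of a type and less RNA per cell cannot be told apart.

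The promoters of 4 genes are printed because their genes carry the called differences: Klf15 and Klf13, which were higher at CT12 in WT, Klf6, which was lower, and Klf9, which differed between genotypes. Promoters run from 250 bases before to 50 bases after the RefSeq gene start (assembly GRCm38.p6) and are written 5′ to 3′ on the gene's strand. Capitals mark 3 kinds of letters searched on both strands: the E-box CACGTG, which BMAL1 and CLOCK bind, the GC box GGGCGG or CCGCCC, and the GT box CACCC or GGGTG, which KLF proteins bind. Of the 8 members 7 had an entry in the table, all but Klf10.
Klf15, chr6:90462326-90462625, plus strand: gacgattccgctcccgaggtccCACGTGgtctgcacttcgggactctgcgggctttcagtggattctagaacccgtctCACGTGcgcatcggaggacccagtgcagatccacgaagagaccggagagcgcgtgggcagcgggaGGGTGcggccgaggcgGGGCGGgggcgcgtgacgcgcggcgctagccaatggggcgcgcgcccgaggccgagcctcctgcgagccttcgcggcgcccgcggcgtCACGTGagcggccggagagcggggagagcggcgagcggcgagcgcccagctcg
Klf6, chr13:5861239-5861538, plus strand: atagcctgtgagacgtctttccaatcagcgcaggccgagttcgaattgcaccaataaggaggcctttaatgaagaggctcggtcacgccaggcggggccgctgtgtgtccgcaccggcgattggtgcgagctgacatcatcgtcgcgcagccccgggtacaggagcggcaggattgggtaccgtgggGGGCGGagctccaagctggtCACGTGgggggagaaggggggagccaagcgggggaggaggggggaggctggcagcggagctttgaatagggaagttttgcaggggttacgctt
Klf13, chr7:63938866-63939165, minus strand: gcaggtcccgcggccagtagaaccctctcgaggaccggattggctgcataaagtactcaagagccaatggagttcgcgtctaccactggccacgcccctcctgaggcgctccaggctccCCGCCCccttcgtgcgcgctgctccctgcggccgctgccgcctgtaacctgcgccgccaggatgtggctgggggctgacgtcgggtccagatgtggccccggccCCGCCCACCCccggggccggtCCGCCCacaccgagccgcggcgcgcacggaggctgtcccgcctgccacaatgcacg
Klf9, chr19:23140976-23141275, plus strand: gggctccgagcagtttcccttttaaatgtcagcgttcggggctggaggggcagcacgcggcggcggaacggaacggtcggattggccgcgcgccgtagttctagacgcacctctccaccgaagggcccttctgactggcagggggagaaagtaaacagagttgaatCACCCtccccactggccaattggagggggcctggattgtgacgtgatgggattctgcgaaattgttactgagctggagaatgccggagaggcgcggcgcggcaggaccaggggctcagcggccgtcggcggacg

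The Klf15 promoter held 3 E-boxes, whose first bases lay at -228, -172 and -3 from the gene start, and 3 or more E-boxes were found in 29 (0.0883%) of all 32851 RefSeq promoters. Klf6 had 1 E-box at -43 and Klf11 had 1 at -214, while 7.15% of all promoters held at least 1. No E-box letters were found in these windows of Klf3, Klf9, Klf12 and Klf13. GC boxes numbered 6 in Klf3, 4 in Klf11, 3 in Klf13 and 1 each in Klf6 and Klf15, with none in Klf9 and Klf12, against 35.7% of all promoters that held any. The GT box occurred 5 times in Klf3 and once each in Klf9, Klf12, Klf13 and Klf15, and 57.5% of all promoters held it. In Klf3 and Klf13 a GC box and a GT box shared bases, as did a pair of GC boxes in Klf11 (first bases at -205 and -201), so those matches are not separate. The D-box of the PAR bZIP factors, the ROR half-site AGGTCA and the glucocorticoid receptor half-site AGAACA were found in none of the 7 windows, and in 1.06%, 16.3% and 19.0% of all promoters. GC content was 45.7% in the Klf12 promoter and between 63.0% and 77.7% in the other 6, against a median of 52.7% over all promoters. A match is a run of letters and was not tested as a binding site.

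**Figure D1:**
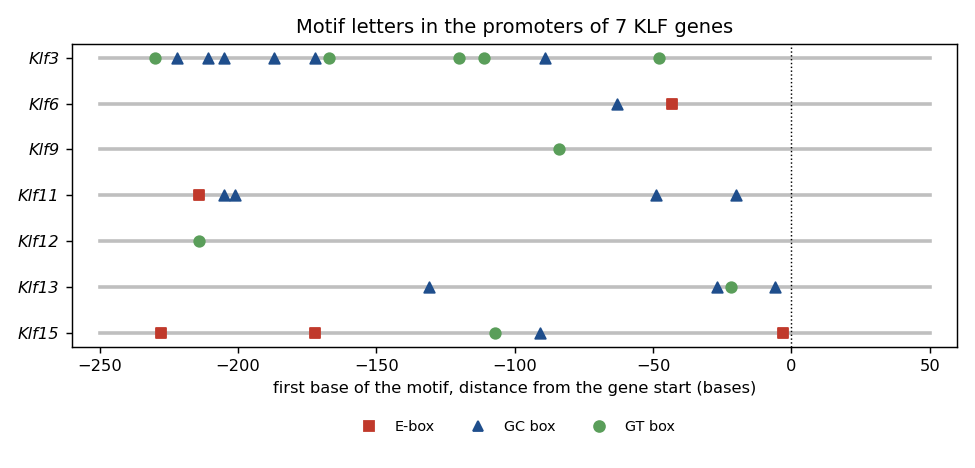
Motif letters in the promoters of 7 KLF genes, plotted by the distance in bases of the first base of each match from the gene start (dotted line). Squares are E-boxes, triangles GC boxes and circles GT boxes of the CACCC type; Klf15 has 3 squares, Klf6 and Klf11 have 1 each, and the other 4 genes have none.

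Klf15 was the most highly expressed member, with a mean of 33.5 RPKM over the 12 samples, which put it at percentile 85.7 of the tested genes. Klf9 followed with 15.4 RPKM (percentile 72.4), Klf3 with 8.38 RPKM (56.8) and Klf12 with 6.66 RPKM (49.8). The remaining means were 4.35 RPKM for Klf10, 3.86 RPKM for Klf13, 2.30 RPKM for Klf6 and 1.74 RPKM for Klf11, the last at percentile 14.4. RPKM is a level per length of transcript. Each value also depends on the transcript row chosen and on the counting of shared reads, which is not stated. Comparisons between genes are thus approximate. The summed level of the 8 genes was 64.2 to 76.5 RPKM in WT at CT0, 88.0 to 97.4 RPKM in WT at CT12, 58.5 to 67.5 RPKM in KO at CT0 and 74.2 to 83.3 RPKM in KO at CT12. Klf15 and Klf9 made up most of that sum.

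**Figure D2:**
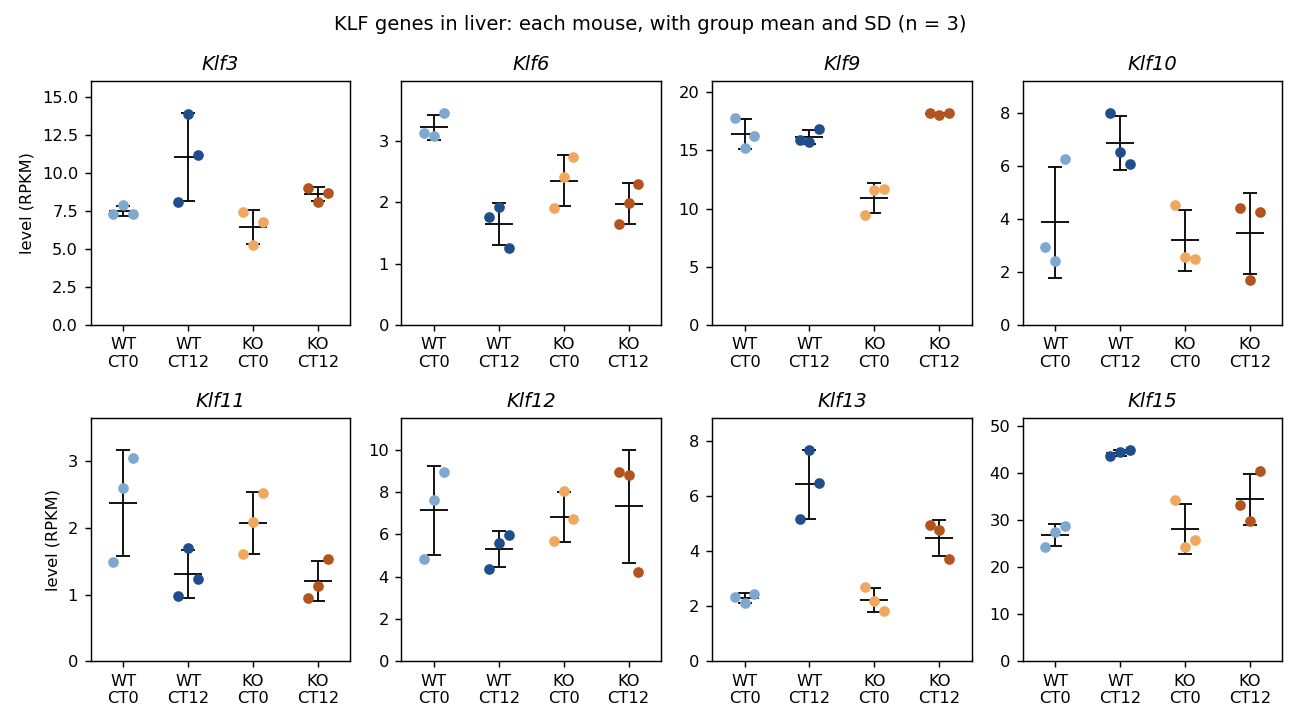
Level of each KLF gene in RPKM (y axis, starting at 0) in each of the 12 samples, by genotype and circadian time; points are samples and the black bars are the group mean and SD (n = 3). The 3 WT samples at CT12 stand above the other groups for Klf13 and Klf15, and the 3 KO samples at CT0 stand below them for Klf9.

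Klf15 and Klf13 were both higher at CT12 than at CT0 in WT liver, and Klf6 was lower. Of the 8 members these 3 passed the test (2 higher and 1 lower at an adjusted p under 0.05, limma) against 11.6% of all tested genes. At CT12 in KO, 2 of the 8 were higher than at CT0 (Klf9 and Klf13) and none was lower, against 2.43% of all genes. Between genotypes, Klf9 was the 1 member called at CT0 (lower in KO, against 1.86% of all genes), and none was called at CT12, where 10.5% of all genes were. The test of whether the change with time differed between genotypes (the interaction) called Klf9 alone, against 1.49% of all genes. The comparisons share samples, so their calls are not separate pieces of evidence.

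KLF15 raises amino acid breakdown and gluconeogenesis in the fasted liver and answers to glucocorticoids. The row used (ENSMUST00000113530 of ENSMUSG00000030087) lies in mm9 at chr6:90415298-90425229 on the plus strand and holds 3 exons. At CT0 its level was 24.3, 27.4 and 28.8 RPKM in the WT livers, with a mean of 26.8 ± 2.29 (SD, n = 3). At CT12 the WT livers had 43.7, 44.5 and 45.0 RPKM (44.4 ± 0.663). Every CT12 sample lay above every CT0 sample, and the 3 CT12 values were close to each other. In KO the values were 34.3, 24.4 and 25.9 RPKM at CT0 (28.2 ± 5.33) and 33.3, 29.7 and 40.4 RPKM at CT12 (34.5 ± 5.43), and these groups overlapped. The levels ran from WT at CT12 through KO at CT12 and KO at CT0 to WT at CT0, and only the first step had no overlap.

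For Klf15 in WT, the ratio of mean levels of CT12 to CT0 was 1.65, and the difference in log2(RPKM + 1), the scale of all differences below, was 0.71 (SE 0.13, limma adjusted p = 0.0061). It was 0.29 in KO (95% confidence interval -0.0076 to 0.58, adjusted p = 0.26). These changes differed by -0.42 (interval -0.84 to -0.0061), which did not pass the test of the interaction (adjusted p = 0.40). Between genotypes, KO stood at 1.05 times the WT level at CT0 (difference 0.057, adjusted p = 0.90). At CT12 it stood at 0.777 times that level (difference -0.37, interval -0.66 to -0.071, adjusted p = 0.11), with no overlap of the samples. Quantile normalization brought the difference at CT12 to -0.43 with an adjusted p of 0.043, so that call depends on the scaling.

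The other Klf15 row (ENSMUST00000032174) starts in mm9 exactly at the gene start of the promoter printed above, and the row used starts 2728 bases downstream of it. Its means of 26.1, 42.9, 27.6 and 33.2 RPKM in WT at CT0, WT at CT12, KO at CT0 and KO at CT12 kept the same order, as far as rows that share most of their exons can show. Among the liver genes of amino acid breakdown and gluconeogenesis that KLF15 or KLF10 are known for (Gpt, Prodh, Otc, Tat, Pck1 and G6pc), 1 of 6 was called between times in each genotype. The shares of all genes were 11.6% in WT and 2.43% in KO. Between genotypes limma called 0 of the 6 at each time, against 1.86% of all genes at CT0 and 10.5% at CT12. At CT0, 2 had an unadjusted p under 0.05, against 14.2% of all genes. They went in opposite directions (Gpt 0.43 and Pck1 -0.83). At CT12 0 had such a p, against 24.9% of all genes. The gene called between times was Pck1, which encodes the gluconeogenic enzyme PEPCK, at 424 ± 57.3 RPKM at CT0 and 1073 ± 206 RPKM at CT12 in WT (difference 1.33, adjusted p = 0.0032). In KO it was 245 ± 80.4 RPKM at CT0 and 988 ± 231 RPKM at CT12 (difference 2.03, adjusted p = 0.0015). The median difference of the 6 genes was 0.25 in WT and -0.10 in KO.

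Klf9, Klf10, Klf11 and Klf13 encode repressors of the group that binds the SIN3A corepressor, and KLF13 was first known as an activator of a chemokine gene in T cells. Klf13 (ENSMUST00000063694 of ENSMUSG00000052040, mm9 chr7:71031237-71083801, minus strand, 2 exons) had the largest change between times of the 8 in WT. The CT0 samples had 2.34, 2.10 and 2.44 RPKM in WT (2.30 ± 0.174). The CT12 samples had 5.15, 7.67 and 6.46 RPKM (6.42 ± 1.26). The groups did not overlap, and the ratio of means was 2.80. In KO livers Klf13 stood at 2.70, 2.17 and 1.84 RPKM at CT0 (2.24 ± 0.431) and at 4.95, 4.76 and 3.73 RPKM at CT12 (4.48 ± 0.658), again without overlap and with a ratio of 2.0. The order was WT at CT12, KO at CT12, WT at CT0 and KO at CT0, and only the CT0 groups overlapped each other.

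The rise of Klf13 from CT0 to CT12 was 1.16 in WT (SE 0.15, adjusted p = 0.00042) and 0.76 in KO (SE 0.15, adjusted p = 0.023). Their difference was -0.40 (interval -0.85 to 0.052) and did not pass the interaction test (adjusted p = 0.47). The rise in KO lost its call without KO replicate 3 at CT0 (0.67, adjusted p = 0.083), without KO replicate 1 at CT12 (0.70, adjusted p = 0.085) and without KO replicate 2 at CT12 (0.72, adjusted p = 0.075), and also with no filter on low values (adjusted p = 0.087) or with the spread of the 6 KO samples alone (adjusted p = 0.083). At CT0 the genotypes differed by -0.033 (interval -0.35 to 0.28). At CT12 all 3 KO samples lay below the WT samples, with a ratio of 0.698 and a difference of -0.43 (interval -0.75 to -0.11, adjusted p = 0.085). That difference passed after quantile normalization (-0.52, adjusted p = 0.045) and without WT replicate 1 at CT12 (-0.56, adjusted p = 0.041). The Klf13 promoter printed above, whose start is the start of this row, has no E-box letters.

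KLF9 is induced by glucocorticoids and thyroid hormone and binds GC-rich DNA. Klf9 (ENSMUST00000036884 of ENSMUSG00000033863, mm9 chr19:23215716-23241401, plus strand, 2 exons) had overlapping levels at the 2 times in WT and separate levels at the 2 times in KO. Its level was 17.8, 15.2 and 16.2 RPKM at CT0 (16.4 ± 1.32) and 15.9, 15.7 and 16.8 RPKM at CT12 (16.2 ± 0.591) in WT. KO livers held 9.42, 11.6 and 11.7 RPKM at CT0 (10.9 ± 1.27). At CT12 KO livers held 18.2, 18.1 and 18.2 RPKM (18.2 ± 0.0865). The KO samples were thus the lowest of all at CT0 and the highest of all at CT12, with no overlap with either WT group (at CT12 by the narrow margin of 18.1 against 17.8 RPKM), while the WT groups overlapped each other. These levels rest on 437 to 1100 reads per sample.

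At CT0 the KO level of Klf9 was 0.663 times the WT level, a difference of -0.55 (SE 0.094, interval -0.76 to -0.35, adjusted p = 0.012). At CT12 the difference was 0.16 (interval -0.046 to 0.37, adjusted p = 0.33). Within KO the level at CT12 was 1.67 times that at CT0 (difference 0.69, SE 0.094, adjusted p = 0.0055), and within WT the difference was -0.020 (interval -0.23 to 0.19, adjusted p = 0.91). The interaction was 0.71 (SE 0.13, interval 0.42 to 1.0, adjusted p = 0.021). Its size varied little over the alternatives, and its call was lost in 8 of 19 of them, with adjusted p-values of at most 0.059. The 6 libraries whose omission ended the call were WT at CT0 replicate 1 (0.66, adjusted p = 0.055), WT at CT0 replicate 3 (0.72, adjusted p = 0.052), WT at CT12 replicate 1 (0.71, adjusted p = 0.059), WT at CT12 replicate 2 (0.69, adjusted p = 0.051), KO at CT12 replicate 2 (0.72, adjusted p = 0.052) and KO at CT12 replicate 3 (0.71, adjusted p = 0.052). When the spread was estimated from the 6 samples compared alone, neither the difference at CT0 (adjusted p = 0.086) nor that within KO (adjusted p = 0.057) passed. Beside the lower Klf9 in KO at CT0, 1 of 5 hepatocyte markers was called (Alb), against 1.86% of all genes. Alb was 19009 ± 2017 RPKM in KO and 36059 ± 2873 RPKM in WT (difference -0.93, limma adjusted p = 0.0045). An unadjusted p under 0.05 was found for 2 of the 5, Alb and Serpina1a (-0.26), against 14.2% of all genes. The 5 differences ran from -0.93 to 0.046. The 4 hepatocyte markers other than Alb summed to 7153 to 10100 RPKM in KO and 9473 to 9957 RPKM in WT, with overlap. The part of the hepatocyte markers in the Klf9 difference was not tested.

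KLF10 is induced by TGF-beta and restrains gluconeogenic genes in liver. Klf10 (ENSMUST00000074043 of ENSMUSG00000037465, mm9 chr15:38224168-38230462, minus strand, 4 exons) had the largest standard error of the 8 in the fit (0.32 for a difference of a pair of groups). WT livers had 2.95, 2.40 and 6.28 RPKM at CT0 (3.88 ± 2.10) and 8.02, 6.53 and 6.10 RPKM at CT12 (6.88 ± 1.0). KO livers had 4.54, 2.56 and 2.49 RPKM at CT0 (3.20 ± 1.16) and 4.42, 1.69 and 4.28 RPKM at CT12 (3.46 ± 1.54). WT replicate 3 at CT0 lay among the CT12 samples, and the other two WT samples at CT0 lay well below them. The WT samples at CT12 were all above the KO samples at CT12. The order of means was WT at CT12, WT at CT0, KO at CT12 and KO at CT0, and all neighbours in it overlapped.

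None of the differences of Klf10 passed the test. At CT12 the WT mean was 1.99 times the KO mean, a difference of -0.88 for KO against WT (interval -1.57 to -0.19, adjusted p = 0.10). Without KO replicate 2 at CT12 that difference was -0.55 (adjusted p = 0.31). The change with time was 0.77 in WT (interval 0.077 to 1.46, adjusted p = 0.14) and 0.053 in KO (interval -0.64 to 0.74, adjusted p = 0.95). The interaction of -0.71 had an interval from -1.69 to 0.26. At CT0 the difference between genotypes was -0.17, and it turned to 0.16 without WT replicate 3 at CT0. Intervals of this width do not show that the genotypes were alike.

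KLF11, a close relative of KLF10, is known for its part in insulin production and in the TGF-beta response. Klf11 (ENSMUST00000020982 of ENSMUSG00000020653, mm9 chr12:25336236-25347639, plus strand, 4 exons) was the lowest of the 8, with 54 to 204 reads per sample. WT samples had 1.49, 2.59 and 3.04 RPKM at CT0 (2.37 ± 0.796) and 0.983, 1.70 and 1.24 RPKM at CT12 (1.31 ± 0.362). KO samples had 1.6, 2.09 and 2.52 RPKM at CT0 (2.07 ± 0.460) and 0.942, 1.12 and 1.53 RPKM at CT12 (1.2 ± 0.300). Mean levels at CT12 were 0.550 of those at CT0 in WT and 0.578 in KO, and the samples separated by time in KO only. The differences were -0.53 in WT (interval -0.95 to -0.11, adjusted p = 0.098) and -0.48 in KO (interval -0.90 to -0.059, adjusted p = 0.20). Neither passed, and the difference in WT passed without WT replicate 1 at CT0 (-0.74, adjusted p = 0.031). The genotypes differed by -0.12 at CT0 and -0.067 at CT12, with intervals of -0.54 to 0.30 and -0.49 to 0.35. All 4 Klf11 rows were lower at CT12 in both genotypes.

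KLF6 is an activator that is quickly induced by stress and injury in several cell types of the liver. Klf6 (ENSMUST00000000080 of ENSMUSG00000000078, mm9 chr13:5860735-5869639, plus strand, 4 exons) was the 1 member that was lower at CT12 in WT by the test. At CT0 WT livers had 3.14, 3.08 and 3.47 RPKM (3.23 ± 0.209). At CT12 they had 1.76, 1.92 and 1.26 RPKM (1.65 ± 0.348). The CT0 level was 1.96 times the CT12 level, with no overlap. In KO, Klf6 stood at 1.91, 2.41 and 2.75 RPKM at CT0 (2.36 ± 0.424) and 1.64, 1.99 and 2.31 RPKM at CT12 (1.98 ± 0.332), and these samples overlapped. WT at CT0 was the 1 group apart from the other groups, which overlapped as neighbours.

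Klf6 fell by 0.68 between CT0 and CT12 in WT (SE 0.14, adjusted p = 0.0077). In KO the difference was -0.17 (interval -0.47 to 0.13, adjusted p = 0.52), and the interaction was 0.51 (interval 0.093 to 0.93, adjusted p = 0.28), so the changes in the genotypes were not shown to differ. At CT0 the KO samples lay below the WT samples (ratio 0.731, difference -0.34, interval -0.64 to -0.042, adjusted p = 0.27). At CT12 the difference was 0.17 (interval -0.12 to 0.47). The immediate early genes, which share such quick induction, had a summed level of 12.9 to 17.4 RPKM in WT at CT0 and 8.01 to 9.21 RPKM in WT at CT12. In KO their sum was 6.27 to 13.6 RPKM at CT0 and 8.35 to 12.9 RPKM at CT12. Of the 8 on that list 4 were tested, and 1 was called, Egr1, which was lower at CT12 in WT (2.12 ± 0.718 RPKM against 0.375 ± 0.209 RPKM, difference -1.17, adjusted p = 0.022). That call was lost without WT replicate 2 at CT0 (-0.99, adjusted p = 0.086), WT replicate 1 at CT12 (-1.12, adjusted p = 0.068) or WT replicate 2 at CT12 (-1.09, adjusted p = 0.063). The share of all genes called in WT between times was 11.6%. An unadjusted p under 0.05 (limma) was found there for 2 of the 4, Egr1 and Junb (-0.92), against 26.9% of all genes. Ier2 was lower at CT12 (-0.34) and Jun slightly higher (0.046).

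Markers of other liver cells had lower sums at CT12 than at CT0 in WT, as Klf6 did, with at most 1 marker of each list called. Of all tested genes, 11.6% were called there and 26.9% had an unadjusted p under 0.05 (limma). The summed endothelial markers were 78.2 to 101 RPKM at CT0 and 55.8 to 65.7 RPKM at CT12 in WT, with 1 of 5 called (Cdh5). The sum of stellate cell and fibroblast markers was 127 to 177 RPKM at CT0 and 93.5 to 110 RPKM at CT12, with 1 of 5 called (Dcn). For Kupffer cells, of whose 7 markers 6 were in the tables, the sums were 121 to 163 RPKM and 77.5 to 117 RPKM, with 1 of 6 called (Emr1). Cholangiocyte markers summed to 2.63 to 3.64 RPKM at CT0 and 0.708 to 2.28 RPKM at CT12, with 1 of 3 tested genes called (Krt7). Lymphocyte markers summed to 5.76 to 6.52 RPKM and 3.6 to 5.01 RPKM, with the 1 tested gene not called (unadjusted p under 0.05). None of these pairs of ranges overlapped. An unadjusted p under 0.05 was found for 4 of 5 endothelial, 3 of 5 stellate cell and fibroblast, 4 of 6 Kupffer cell and 1 of 3 cholangiocyte markers. Every tested marker of these lists had a difference below 0. Red cell markers summed to 117 to 275 RPKM and 82.4 to 145 RPKM, with 0 of 3 called by limma and 2 at an unadjusted p under 0.05. The hepatocyte sum without Alb was 9473 to 9957 RPKM at CT0 and 7608 to 8567 RPKM at CT12, with 0 of 5 called by limma. Of the hepatocyte markers, 2 had an unadjusted p under 0.05, in opposite directions (Ttr -0.25 and Hnf4a 0.43). Of the genes called in WT between times, 851 were lower and 401 were higher at CT12. In KO the median difference between times was -0.49 for endothelial, -0.73 for stellate cell and fibroblast, -0.335 for Kupffer cell and -0.52 for cholangiocyte markers. Limma called 0 of each of these lists in KO, and Marco, a Kupffer cell marker, was higher at CT12 (0.30). Klf6 differed by -0.17 in KO. The part of these markers in the differences between times was not tested.

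KLF3 and KLF12 are repressors that bind the CtBP corepressors. Klf3 (ENSMUST00000166409 of ENSMUSG00000029178, mm9 chr5:65203578-65220721, plus strand, 6 exons) had 7.28, 7.84 and 7.27 RPKM at CT0 (7.47 ± 0.326) and 8.10, 13.9 and 11.2 RPKM at CT12 (11 ± 2.89) in WT. In KO it had 7.39, 5.22 and 6.76 RPKM at CT0 (6.45 ± 1.12) and 8.97, 8.07 and 8.67 RPKM at CT12 (8.57 ± 0.455). All 6 samples at CT12 lay above all 6 samples at CT0, and the genotypes overlapped at each time. The differences with time were 0.48 in WT (interval 0.13 to 0.83, adjusted p = 0.074) and 0.37 in KO (interval 0.022 to 0.72, adjusted p = 0.22), and neither passed. Without WT replicate 1 at CT12 the difference in WT was 0.67 with an adjusted p of 0.016. Between genotypes the differences were -0.19 at CT0 (interval -0.54 to 0.15) and -0.30 at CT12 (interval -0.65 to 0.045). The Klf3 row used starts 8818 bases downstream of the gene start whose promoter was searched for motifs. The other Klf3 row starts 2 bases downstream of that gene start. Its means of 6.61, 9.91, 5.97 and 7.89 RPKM in WT at CT0, WT at CT12, KO at CT0 and KO at CT12 kept the order of the row used.

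Klf12 (ENSMUST00000097079 of ENSMUSG00000072294, mm9 chr14:100269869-100549015, minus strand, 7 exons) passed the test in no comparison. WT samples had 4.85, 7.65 and 8.96 RPKM at CT0 (7.15 ± 2.10) and 4.38, 5.58 and 5.99 RPKM at CT12 (5.31 ± 0.837). KO samples had 5.71, 8.06 and 6.72 RPKM at CT0 (6.83 ± 1.18) and 8.97, 8.79 and 4.22 RPKM at CT12 (7.33 ± 2.69). All groups overlapped, and the third KO sample at CT12 was the lowest of the 12. The differences with time were -0.34 in WT (interval -0.90 to 0.21) and 0.039 in KO (interval -0.51 to 0.59). The genotype differences were -0.034 at CT0 (interval -0.59 to 0.52) and 0.35 at CT12 (interval -0.20 to 0.90).

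**Figure D3:**
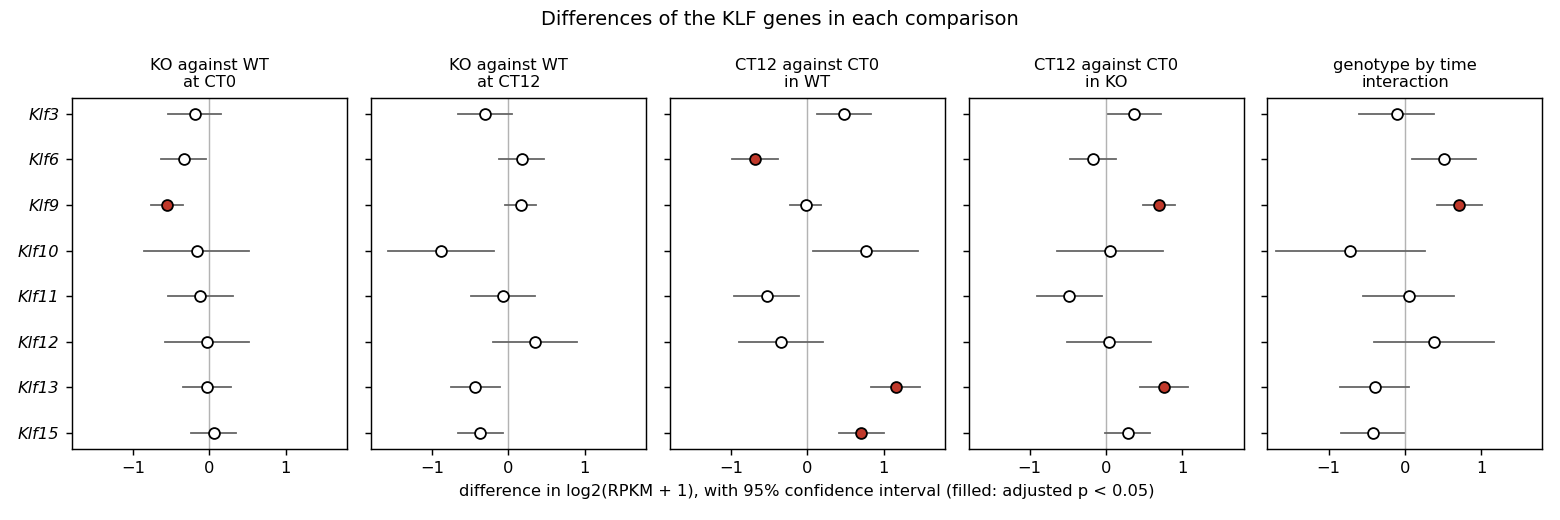
Difference in log2(RPKM + 1) of each KLF gene (x axis) in 5 comparisons, with its 95% confidence interval; filled circles have an adjusted p under 0.05 (limma). Filled are Klf9 at CT0, Klf6, Klf13 and Klf15 between times in WT, Klf9 and Klf13 between times in KO, and Klf9 in the interaction.

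Over the 8 genes, the median difference of KO against WT was -0.14 at CT0 and -0.19 at CT12, beside 0.011 and 0.080 over all tested genes. At CT12, 3 of the 8 (Klf10, Klf13 and Klf15) had an unadjusted p under 0.05 while none passed the adjusted threshold in limma, and 24.9% of all genes had such an unadjusted p. In those 3 genes every KO sample lay below every WT sample, and in Klf9 every KO sample lay above. Groups that did not overlap were thus found in 4 of 8 members at CT12, against 28.8% of all tested genes, and in 2 of 8 at CT0 (Klf6 and Klf9), against 20.6%. Between times they were found in 4 of 8 members in WT (Klf3, Klf6, Klf13 and Klf15), against 34.1% of all genes, and in 4 of 8 in KO (Klf3, Klf9, Klf11 and Klf13), against 23.2%. Between times the median was 0.23 in WT and 0.17 in KO, beside -0.068 and -0.0020 over all genes. Klf3, Klf10, Klf13 and Klf15 had higher means at CT12 in both genotypes and Klf6 and Klf11 had lower means in both. Klf9 and Klf12 had lower means at CT12 in WT and higher means in KO, though the small difference of Klf9 in WT turned to 0.012 after quantile normalization. Beside the KO values at CT12, Alb was 14868 ± 1301 RPKM in KO and 30907 ± 3915 RPKM in WT (difference -1.05, limma adjusted p = 0.0003). It was the 1 of 5 hepatocyte markers called, against 10.5% of all genes. The other 4 summed to 8567 to 9423 RPKM in KO and 7608 to 8567 RPKM in WT. Red cell markers summed to 168 to 214 RPKM in KO and 82.4 to 145 RPKM in WT, and stellate cell and fibroblast markers to 117 to 152 RPKM and 93.5 to 110 RPKM. Of these lists limma called 0 of 3 and 0 of 5, with 2 of each at an unadjusted p under 0.05 (Hbb-b1, Hba-a1, Dcn and Reln, all higher in KO). The part of these markers in the KLF values was not tested.

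**Figure D4:**
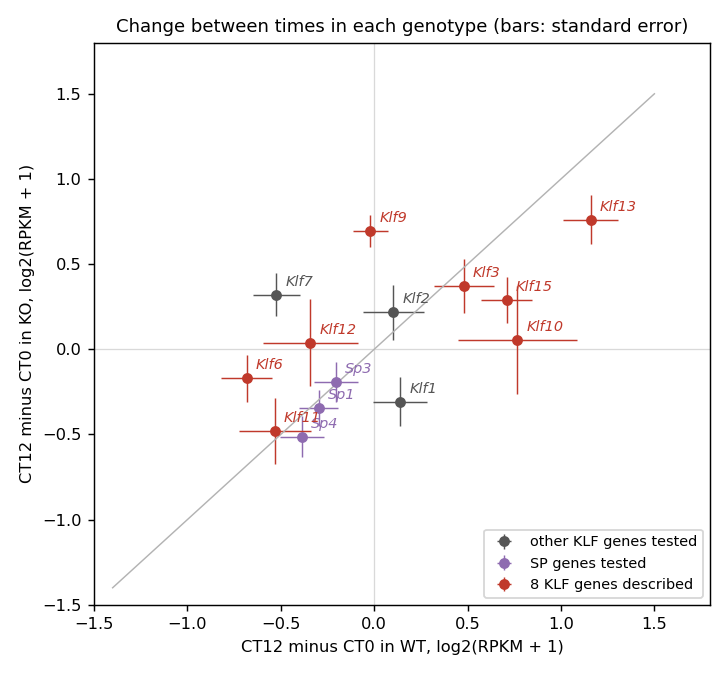
Difference between CT12 and CT0 in log2(RPKM + 1) in WT (x axis) against that in KO (y axis) for the 8 KLF genes and for the other KLF and SP genes tested; bars are standard errors and the diagonal marks equal change. Klf9 lies at -0.020 in WT and 0.69 in KO, and Klf13 lies farthest to the right, at 1.16 and 0.76.

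The other genes of the family were mostly below the filter. Of Klf1, Klf2, Klf4, Klf5, Klf7, Klf8, Klf14, Klf16 and Klf17, 3 were tested (Klf1, Klf2 and Klf7) and 6 were not. Klf14 was listed at 0 in every sample. In no comparison between genotypes was any of the 3 called by limma, and Klf7 alone had an unadjusted p under 0.05 there, at both times. Of all genes 1.86% at CT0 and 10.5% at CT12 were called. Such an unadjusted p was found for 14.2% and 24.9% of all genes. Klf7, which encodes an activator, was lower at CT12 in WT (difference -0.52, adjusted p = 0.022), at 2.54 ± 0.0689 RPKM at CT0 and 1.46 ± 0.185 RPKM at CT12. In KO it was 1.55 ± 0.139 RPKM at CT0 and 2.21 ± 0.538 RPKM at CT12, and its interaction was 0.84 (adjusted p = 0.041). The interaction lost its call when any 1 sample but KO replicate 3 at CT12 was left out (adjusted p of 0.062 to 0.10), and the difference in WT did so without any WT sample but replicate 3 at CT12 (adjusted p of 0.057 to 0.065). The Klf7 row is 668 bases long and rested on 12 to 33 reads per sample. The longest Klf7 row, with 7664 bases, had means of 1.14, 0.892, 1.21 and 1.0 RPKM in WT at CT0, WT at CT12, KO at CT0 and KO at CT12, a different order. The rows of 553 bases (2.60, 1.32, 1.60 and 2.14 RPKM) and 1332 bases (2.22, 1.45, 1.65 and 1.99 RPKM) kept the order of the row used.

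The related SP proteins bind the same GC boxes as the KLF proteins. Of 9 SP genes 3 were tested (Sp1, Sp3 and Sp4), with summed levels of all 9 of 20.6 to 25.3 RPKM in WT at CT0, 17.9 to 18.8 RPKM in WT at CT12, 21.3 to 22.8 RPKM in KO at CT0 and 17.3 to 18.5 RPKM in KO at CT12. Sp4 was the 1 SP gene called, in KO between times, where 2.43% of all genes were called. It was 1.99 ± 0.288 RPKM at CT0 and 1.1 ± 0.209 RPKM at CT12 (difference -0.51, limma adjusted p = 0.047). That call was lost in 17 of 19 alternatives, with adjusted p-values up to 0.15, including every omission of a single sample except KO replicate 2 at CT0. In WT the Sp4 difference was -0.39 (adjusted p = 0.055), and the interaction of -0.13 did not pass (adjusted p = 0.83). Of the 6 corepressor genes tested (Sin3a, Sin3b, Ctbp1, Ctbp2, Hdac1 and Hdac2) limma called 0 in each of the 5 comparisons. The share of all genes called ran from 1.49% to 11.6% over these comparisons. In KO against WT at CT12, 1 of the 6 had an unadjusted p under 0.05, against 24.9% of all genes. In the other comparisons 0 had such a p, against 12.3% to 26.9% of all genes. The summed level of the 6 corepressor genes ranged from 55.0 to 68.5 RPKM over all samples.

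The tested genes whose log2(RPKM + 1) ran most closely with each member over the 12 samples were found by Pearson's r, as a description. For Klf13 they were Usp2 (r = 0.973), Ccrn4l (0.971) and Zfp612 (0.966). For Klf15 they were Atl2 (0.957), Morc3 (0.953) and Stard5 (0.941), and for Klf9 Lims2 (0.932), Flot1 (0.915) and Ppap2c (0.902). Klf6 ran closest with Tifa (0.955), Zfp386 (0.946) and Krt18 (0.943), and Klf11 with Erbb3 (0.955), Ptrf (0.929) and Ccdc80 (0.915). The nearest genes to Klf3 were Akap9 (0.900), Tmc7 (0.886) and Abcc2 (0.885), those to Klf10 were Phf14 (0.888), Bbox1 (0.872) and Hnmt (0.867), and those to Klf12 were Col18a1 (0.909), Srrm2 (0.893) and Cpsf1 (0.887). The 12 points share the 4 groups and their libraries, and the 3 genes were picked as the highest of 10799.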

How the data were processed

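Total RNA of 12 liver samples was made into libraries with the TruSeq RNA kit, whose strand setting is not given in the sources used here. The authors deposited 1 table per sample of RPKM values for 46585 Ensembl transcripts with gene symbols. The submitters' processing notes name TopHat2, bedtools 2.19.1 and mm9, with no role for each. Counting of reads shared by transcripts is not stated, so rows of a gene and overlapping genes may share reads. Groups and replicate numbers came from the sample titles. The titles give 3 samples per group, while the protocol text speaks of fewer mice per group, and p-values measure the spread between these samples. That is a spread between mice only if each sample came from a different mouse.

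RPKM values were taken as log2(RPKM + 1), with 1 row per symbol (the highest mean). This scale understates changes of low genes. The 10799 symbols with a group mean of at least 1 RPKM in 1 group or more were fitted with limma 3.58.1 (lmFit, contrasts.fit, eBayes with trend) in R 4.3.3, with 4 group means over all 12 samples. P-values were adjusted by Benjamini-Hochberg over all of them (threshold 0.05), and the procedure was tested on simulated data. Depth was recovered with transcript lengths of GENCODE (build NCBIM37, 95.5% of rows matched), where 94.5% to 95.3% of values of up to 10 reads were whole within 0.01 reads. The members, gene lists, marker lists and tests were chosen with earlier results of these data known. All 8 members, the targeted gene, the genes called on the lists and the 3 nearest genes per member were named. Promoters came from RefSeq (GRCm38.p6), and each of the 7 also matched NCBIM37 once.

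Alternatives were a pseudocount of 0.1, no filter, 1 RPKM in every sample, quantile normalization, summed transcript rows, the replicate number as a block, an unmoderated model with unadjusted p-values, a fit of the 6 samples of a comparison alone, and the omission of each sample in turn.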

Additional observations from a re-analysis of the deposited data

Results flagged for a closer look

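The change between CT0 and CT12 differed between WT and KO, by the interaction in limma, for 3 of the genes described. They were 1 of the 8 members (Klf9), 1 of the 3 other KLF genes tested (Klf7) and the targeted gene. Called in the interaction were 161 (1.49%) of all 10799 tested genes. For Klf9 the difference was 0.71 on the log2(RPKM + 1) scale (adjusted p = 0.021, n = 3 samples per group), with no change in WT past the threshold and a higher level at CT12 in KO, where 3 of 3 samples at CT12 lay above every sample at CT0. That call was lost in 8 of 19 alternatives, 6 of them omissions of a single sample, with adjusted p-values up to 0.059. For Klf7 it was 0.84 (adjusted p = 0.041), on a short row with few reads, and the call was lost in 15 of 19 alternatives, with adjusted p-values up to 0.11. For Arntl, the targeted gene, it was 2.50 (adjusted p = 7.2e-05), and it was kept in 18 of 18 alternatives. Groups of 3 were not tested for single samples that stand apart.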

How the results depend on the processing

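Of the calls on the members, those of Klf6, Klf13 and Klf15 between times in WT were kept in 20 of 20 alternatives. Percentages below are of all genes in the same fit. The number of members called in KO against WT at CT0 was 1 (1.86%). It became 2 in the unmoderated model with unadjusted p-values (13.8%) and 0 with only the 6 samples compared (0.972%). At CT12 it was 0 (10.5%), and became 2 after quantile normalization (9.67%) and 3 in the unmoderated model with unadjusted p-values (24.2%). It was 0 to 1 when single samples were left out. In WT between times 3 became 5 in the unmoderated model with unadjusted p-values. It became 4 without WT replicate 1 at CT0 and without WT replicate 1 at CT12. In KO between times 2 (2.43%) became 1 with no filter (0.273%) and 0 with only the 6 samples compared (0.241%). It was 1 to 2 in KO between times when single samples were left out. In the interaction 1 (1.49%) became 0 with no filter (0.287%) and after quantile normalization (1.33%), and 0 to 1 when single samples were left out. It became 2 in the unmoderated model with unadjusted p-values (12.3%).

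With the replicate block the counts were 1, 0, 4, 2 and 1 in the same order, and the block added Klf11 in WT (-0.53, adjusted p = 0.033). Replicate numbers did not pair the samples: the correlation of deviations had a mean of 0.0083 over 18 pairs of the same number (-0.067 to 0.14) and -0.0041 over 36 pairs of different numbers, and 5 of 12 samples were closest to their own number.

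Directions of differences that had not passed turned as follows. After quantile normalization, Klf9 in WT between times was 0.012 and the interaction of Klf11 was -0.041, and with summed rows the latter was -0.23. When single samples were left out, KO against WT at CT0 ranged from -0.39 to 0.16 for Klf10, -0.32 to 0.027 for Klf11, -0.26 to 0.13 for Klf12, -0.13 to 0.057 for Klf13 and -0.088 to 0.15 for Klf15, and at CT12 from -0.17 to 0.052 for Klf11. Between times, Klf9 in WT ranged from -0.071 to 0.037, and in KO Klf10 from -0.12 to 0.38 and Klf12 from -0.12 to 0.35. The interaction ranged from -0.30 to 0.057 for Klf3 and -0.093 to 0.25 for Klf11. The cause was not tested. Klf6 and Klf11 rest on 54 to 250 reads per sample, which limits their precision by counting error alone.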
